A study of Mus musculus with 7 samples.

Results

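The secretoglobins Scgb1a1, Scgb3a1 and Scgb3a2 and the BPI-fold proteins Bpifa1 and Bpifb1 are products of airway secretory epithelium. They were followed by gene symbol across 7 mouse lung RNA-seq libraries, and all 5 were found among 22447 genes. Of these libraries, 3 came from lung tumors of mice with EZH2 overexpression (OE tumors), 2 from normal lung of the same genotype (OE normal) and 2 from lung of wild-type mice (WT). EZH2 is the methyltransferase of the Polycomb complex PRC2, and both OE groups carry the overexpression. The labels do not say which promoter and cell type drive it or how old the mice were. They also do not say whether samples of a group were separate animals. By the sex-linked genes given below, the 2 OE normal lungs came from different animals, and tumor 1 from another animal than tumors 2 and 3. Whether tumors 2 and 3, or the 2 WT lungs, came from separate animals is not settled. A p-value here reflects no more than how these samples vary, which may in part be technical. The growth protocol is one for culturing minced nodules while the source is lung, so whether the tumor RNA is that of tissue or of cultures is not stated.

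Secretoglobins are small secreted proteins that form disulfide-linked dimers. Scgb1a1, the club cell secretory protein or uteroglobin, is the classical marker of club cells, the non-ciliated secretory cells of the bronchioles. Scgb3a1 and Scgb3a2 are secreted by airway epithelium as well, and Scgb3a2 has been described as a ligand of the scavenger receptor Marco. BPI-fold proteins share a lipid-binding fold with the bactericidal/permeability-increasing protein. Bpifa1 (SPLUNC1) is secreted onto the airway surface, where in human airway cultures it limits bacterial growth and the epithelial sodium channel, and Bpifb1 (LPLUNC1) is a longer relative made by secretory and glandular cells.

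In the RefSeq gene table of build GRCm38.p6 the BPI-fold genes are neighbors on chromosome 2, where the end of Bpifa1 and the start of Bpifb1 are 41600 bases apart, while Scgb3a1 lies on chromosome 11. The RefSeq promoter table held windows for 3 of the 5 genes. The 250 bases before each start are shown because Bpifa1 and Bpifb1, though neighbors, differed in opposite directions in tumors 2 and 3. Capitals mark a TATA box (TATAAA) in Bpifa1 and an NKX2-1 motif (CAAGTG on the minus strand, printed here as CACTTG) in Scgb3a1. All windows are of the plus strand.
Bpifa1, chr2:154142630-154142879: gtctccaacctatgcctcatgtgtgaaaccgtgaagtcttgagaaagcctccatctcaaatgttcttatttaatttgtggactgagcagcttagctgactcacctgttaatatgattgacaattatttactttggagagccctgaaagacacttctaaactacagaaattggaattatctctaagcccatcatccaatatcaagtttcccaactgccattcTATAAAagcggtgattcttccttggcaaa
Bpifb1 first start, chr2:154190568-154190817: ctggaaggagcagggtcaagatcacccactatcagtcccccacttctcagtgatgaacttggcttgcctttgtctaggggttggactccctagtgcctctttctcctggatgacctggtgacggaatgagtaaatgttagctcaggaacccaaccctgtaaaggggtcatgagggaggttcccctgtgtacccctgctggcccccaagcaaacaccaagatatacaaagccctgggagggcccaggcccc
Bpifb1 second start, chr2:154200130-154200379: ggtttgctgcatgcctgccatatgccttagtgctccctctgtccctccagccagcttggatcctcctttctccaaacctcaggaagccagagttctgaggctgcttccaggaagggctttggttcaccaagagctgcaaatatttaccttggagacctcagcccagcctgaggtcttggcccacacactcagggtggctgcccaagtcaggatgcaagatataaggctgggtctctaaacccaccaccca
Scgb3a1, chr11:49663345-49663594: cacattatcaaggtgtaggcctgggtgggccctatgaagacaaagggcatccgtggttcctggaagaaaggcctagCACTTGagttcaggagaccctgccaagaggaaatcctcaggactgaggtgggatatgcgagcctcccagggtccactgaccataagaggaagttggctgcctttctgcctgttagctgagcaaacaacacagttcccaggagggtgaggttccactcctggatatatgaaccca
Both strands of these windows were searched for TATAAA, the forkhead motif TGTTTAC, the NKX2-1 motif CAAGTG and the C/EBP motif TTGCNNAA. The TATA box of Bpifa1 begins 29 bases before its start, and the NKX2-1 match of Scgb3a1 begins 174 bases before its start. None of these letters was found in either Bpifb1 window. Among 32851 windows of the same length, 12.4% held TATAAA, 3.17% TGTTTAC, 11.6% CAAGTG and 9.56% TTGCNNAA, so the matches are a description only.

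The libraries had a summed level of 405166 to 503550 FPKM (fragments per kilobase of transcript, scaled to library size) and relative depths, read from the spacing of low values, of 1 to 1.87 times that of tumor 1, which was the shallowest. Read totals were not given. Tumor 1 stood apart from the other tumors, with a Pearson r across genes on the log scale of 0.897 with tumor 2 and 0.894 with tumor 3, against 0.970 between tumors 2 and 3. By sex-linked genes, tumor 1 had Eif2s3y at 30.7 FPKM and Xist at 0.127 FPKM, while tumors 2 and 3 had Xist at 74.2 and 60.6 FPKM. Ezh2 itself had 8.48, 23.5 and 22.6 FPKM in OE tumors, 10.2 and 11.5 FPKM in the OE normal group and 3.72 and 2.58 FPKM in WT lung. Every OE library was above both WT libraries, and tumor 1 was below both OE normal lungs.

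Scgb1a1 was present in all 3 tumors and listed at 0 in all 4 normal lungs. It had 2226.7, 56.3 and 1095.5 FPKM in OE tumors 1, 2 and 3, and it was listed at 0 FPKM in both OE normal lungs and both WT lungs. Club cells of normal mouse lung make this transcript in abundance, and other club cell genes were high in the same normal libraries, among them Cyp2f2 at 1093 to 1619 FPKM. Small RNA genes aside, 85 genes reached 1000 FPKM somewhere, and of these Scgb1a1 and the surfactant gene Sftpc alone were also listed at 0 in another library. The entry of 0 may therefore be a withheld or failed estimate, and no fold or test is given for Scgb1a1 between tumors and normal lung.

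Among the tumors themselves Scgb1a1 spanned 39.5-fold. Tumor 1 had 2.03 times the level of tumor 3, and tumor 3 had 19.5 times that of tumor 2. Scgb1a1 ranked 17 of all genes in tumor 1, 61 in tumor 3 and 1141 in tumor 2. Among the tumors, it was the leading gene of the set in tumor 1 alone.

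Scgb3a2 was lower in every tumor than in every normal lung. It had 14.1, 47.3 and 98.9 FPKM in OE tumors, 544 and 664 FPKM in the OE normal group and 1056 and 797 FPKM in WT lung. Means were 53.4 ± 42.7 FPKM in OE tumors (SD, n = 3), 604 ± 84.7 FPKM in the OE normal group (n = 2) and 927 ± 183 FPKM in WT lung (n = 2). On the log2(FPKM + 1) scale the tumors fell by 3.85 relative to OE normal lung (SE 0.73, 95% interval -5.63 to -2.07, limma adjusted p = 0.00871) and differed by -4.46 from WT lung (SE 0.73, -6.24 to -2.68, limma adjusted p = 0.00522). The call against OE normal lung was lost without OE normal 1 (limma adjusted p = 0.0507) or without OE normal 2 (limma adjusted p = 0.0634), with differences of -3.99 and -3.70.

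Bpifb1 also fell in the tumors and there was close to the lower limit of expression. It had 0.408, 1.05 and 2.46 FPKM in OE tumors, 48.1 and 67.9 FPKM in the OE normal group and 44.4 and 12.5 FPKM in WT lung. No tumor reached the lowest normal lung, and WT 2 was the lowest of the normal lungs. Means were 1.31 ± 1.05 FPKM in OE tumors (SD, n = 3), 58.0 ± 13.97 FPKM in the OE normal group (n = 2) and 28.4 ± 22.6 FPKM in WT lung (n = 2). The log2 difference was -4.76 relative to OE normal lung (SE 0.59, 95% interval -6.19 to -3.32, limma adjusted p = 0.00188) and -3.52 relative to WT lung (SE 0.59, -4.96 to -2.09, limma adjusted p = 0.00563). Both calls were made under each of the 14 alternatives run.

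Scgb3a1 was lower in all 3 tumors than in OE normal lung, and lower than in WT lung in tumors 1 and 2 only. It had 12.6, 36.5 and 168 FPKM in OE tumors, 211 and 493 FPKM in the OE normal group and 156 and 98.8 FPKM in WT lung. All tumors were below both OE normal lungs, whereas tumor 3 was above both WT lungs. Means were 72.5 ± 83.9 FPKM in OE tumors (SD, n = 3), 352 ± 199 FPKM in the OE normal group (n = 2) and 127 ± 40.5 FPKM in WT lung (n = 2). The log2 difference of -2.87 relative to OE normal lung did not pass the threshold (SE 1.02, 95% interval -5.36 to -0.39, limma adjusted p = 0.0697), nor did that of -1.50 relative to WT lung (SE 1.02, -3.98 to 0.98, limma adjusted p = 0.286). Tumor 3 decided both calls: without it the differences were -3.84 (limma adjusted p = 0.0117) and -2.47 (limma adjusted p = 0.0415).

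Bpifa1 separated the tumors more than any other gene of the set. It had 28.7, 12907 and 15754 FPKM in OE tumors 1, 2 and 3, 449 and 216 FPKM in the OE normal group and 90.5 and 20.1 FPKM in WT lung. Tumors 2 and 3 were far above all normal lungs, while tumor 1 was below both OE normal lungs and lay between the WT lungs. Bpifa1 ranked 2 and 1 of all genes in tumors 2 and 3, where it held 2.67% and 3.38% of the summed FPKM, and it ranked 2377 in tumor 1, where it held 0.00570%. Means were 9563 ± 8379 FPKM in OE tumors (SD, n = 3), 333 ± 165 FPKM in the OE normal group (n = 2) and 55.3 ± 49.8 FPKM in WT lung (n = 2).

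With all 3 tumors the group difference of Bpifa1 was not separable from this spread. The log2 difference was 2.54 relative to OE normal lung (SE 2.75, 95% interval -4.13 to 9.22, limma adjusted p = 0.494) and 5.37 relative to WT lung (SE 2.75, -1.30 to 12.04, limma adjusted p = 0.169). Without tumor 1 the differences were 5.51 (limma adjusted p = 0.0015) and 8.34 (limma adjusted p = 3.6e-04). Those values rest on tumors 2 and 3, which were left after removal of the library that went the other way, and they describe these libraries.

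**Figure D1:**
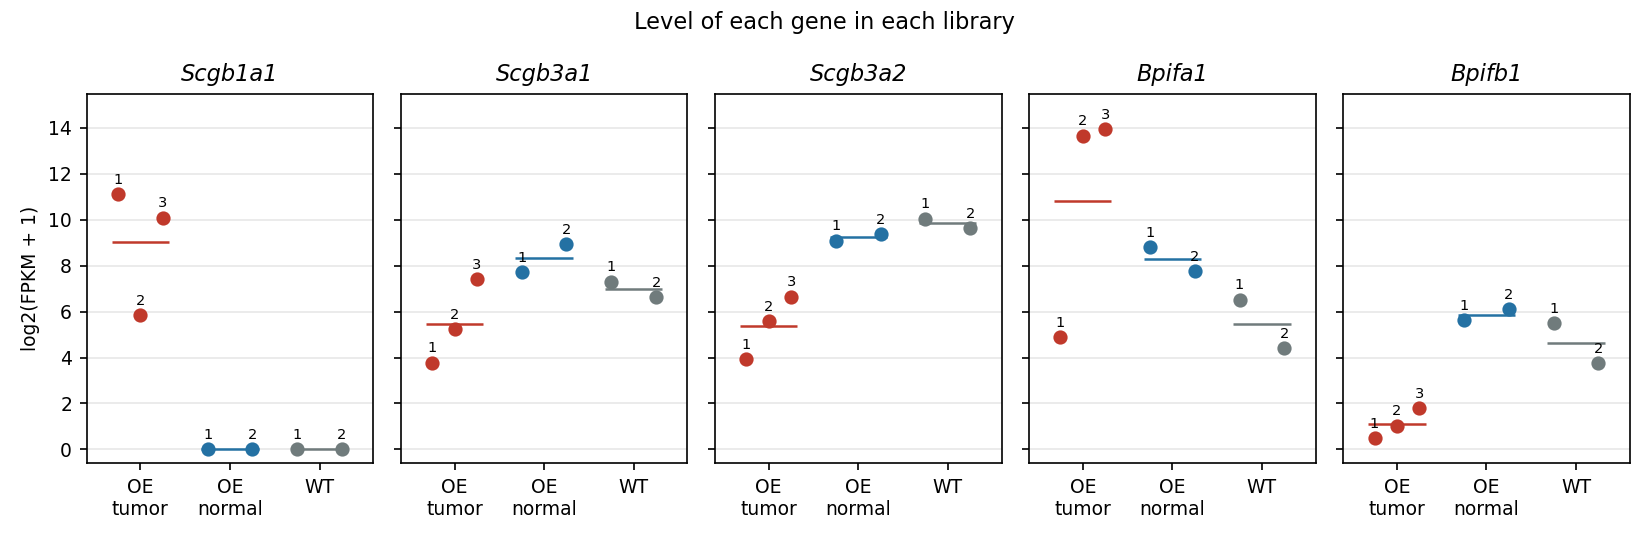
Level of each gene in each library on the log2(FPKM + 1) scale, with libraries grouped as OE tumor, OE normal and WT. Points are single libraries marked by their replicate number and lines are group means of log2 values; Bpifa1 in tumors 2 and 3 lies above all other points, and Scgb1a1 lies at 0 in all 4 normal lungs.

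**Figure D2:**
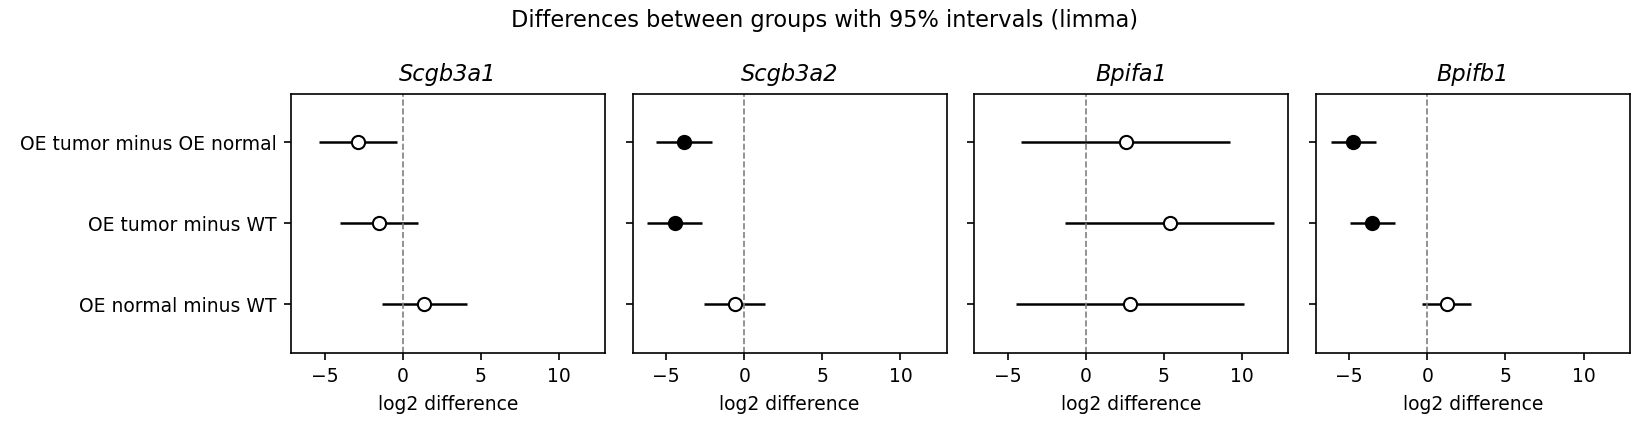
Differences between groups for the 4 genes fitted, on the log2(FPKM + 1) scale, with 95% intervals from limma. Filled points passed an adjusted p of 0.05 over 14057 genes; these are Scgb3a2 and Bpifb1 in both comparisons of tumors, while the intervals of Bpifa1 include 0 in all 3 comparisons.

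Counted together, 2 of the 4 genes fitted fell in tumors relative to OE normal lung and none rose. Of all 14057 genes tested, 38.1% were called in either direction and 24.9% were called lower in that comparison. The same count, 2 fallen and none risen, was found relative to WT lung, where 38.2% of all genes were called and 23.2% were called lower; both comparisons use the same 3 tumors. Scgb3a1, Scgb3a2 and Bpifb1, 3 of the 4, lay below both OE normal lungs in every tumor and none lay above them, against 35.9% of all genes lower and 25.0% higher in this way. Relative to WT lung 2 of the 4 did so, and none the other way, against 35.0% lower and 28.9% higher. With calls this common, the count of members does not set them apart from other genes. An exact two-sided permutation test over samples could not go below p = 0.2 for 3 against 2 libraries, and gave exact p = 0.2 for Scgb3a1, Scgb3a2 and Bpifb1 and exact p = 0.6 for Bpifa1 relative to OE normal lung. Adjusted over the 12 such tests of members, the exact p-values were 0.444 to 0.6.

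Between OE normal lung and WT lung no gene of the set was called by limma. Scgb3a1, Bpifa1 and Bpifb1 were each higher in both OE normal lungs than in both WT lungs, and Scgb3a2 was lower in both. Groups failed to overlap in this way for 29.6% of all genes in the higher direction and 23.1% in the lower. The log2 differences were 1.37 for Scgb3a1 (95% interval -1.35 to 4.09, limma adjusted p = 0.945), -0.61 for Scgb3a2 (-2.56 to 1.34, limma adjusted p = 1), 2.83 for Bpifa1 (-4.48 to 10.14, limma adjusted p = 0.992) and 1.23 for Bpifb1 (-0.34 to 2.81, limma adjusted p = 0.723). These intervals are wide, and they rest on a spread pooled with the tumors. Without tumor 1 the adjusted p from limma was 0.112 for Bpifa1, 0.304 for Bpifb1, 0.369 for Scgb3a1 and 0.383 for Scgb3a2, with the differences as before. Over all genes limma called 0 (0.0%) here, with 1208 at an unadjusted p under 0.05, and 302 without tumor 1.

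The tumors differed among themselves far more in these genes than in most. The range over the 3 tumors on the log2(FPKM + 1) scale was 9.05 for Bpifa1, 5.28 for Scgb1a1, 3.64 for Scgb3a1, 2.72 for Scgb3a2 and 1.30 for Bpifb1, against a median of 0.46 over the genes tested. A range at least that of Bpifa1 was found for 19 genes (0.135%), of Scgb1a1 for 49 (0.349%), of Scgb3a1 for 102 (0.726%) and of Scgb3a2 for 212 (1.51%). For Bpifb1 it was found for 1364 genes (9.70%), although its ratio of highest to lowest tumor was 6.02, close to the 6.99 of Scgb3a2, because a pseudocount of 1 shrinks ranges near 1 FPKM. Normal lungs differed in some of these genes too. Within WT lung the range was 1.75 for Bpifb1, more than over the tumors, and 2.11 for Bpifa1. Within OE normal lung it was 1.22 for Scgb3a1. Apart from Bpifb1 in WT lung, each range within a normal group was smaller than over the tumors.

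Scgb1a1 ran in another order across the tumors than the other 4 genes. Scgb3a1, Scgb3a2, Bpifa1 and Bpifb1 were each lowest in tumor 1 and highest in tumor 3, whereas Scgb1a1 was highest in tumor 1 and lowest in tumor 2. Bpifa1 was 449.6 times as high in tumor 2 as in tumor 1, but only 1.22 times as high in tumor 3 as in tumor 2. The gap between tumors 2 and 3 was larger for Scgb1a1, at 19.5-fold. Tumor 1 is the male and the shallowest of the tumor libraries, and the part of sex, depth or library in these differences was not tested. Sex was also uneven across the groups, since Eif2s3y stood at 27.4 to 29.8 FPKM in OE normal 1, WT 1 and WT 2, while OE normal 2 had Xist at 63.6 FPKM.

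**Figure D3:**
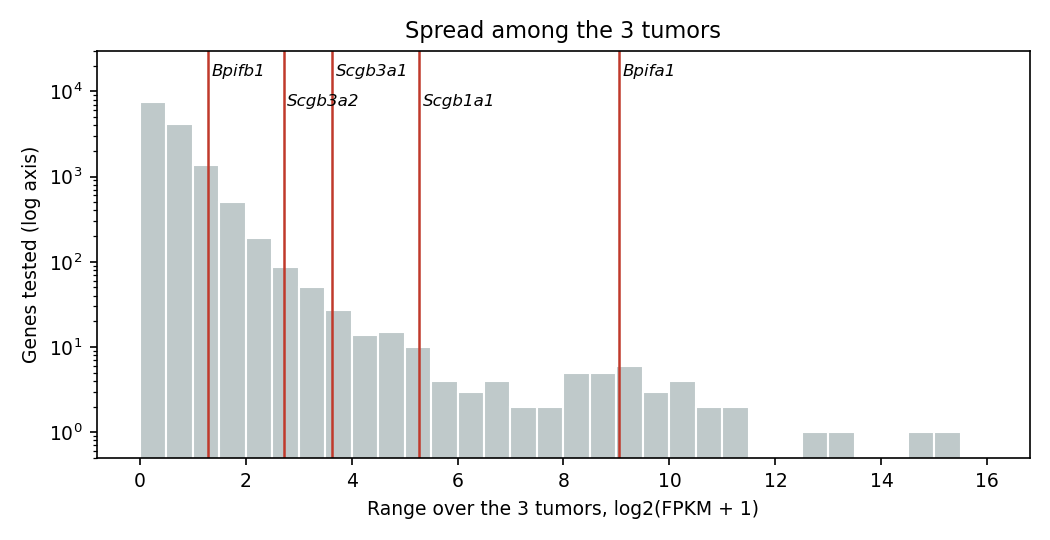
Number of tested genes (log axis) by their range over the 3 OE tumors, as highest minus lowest log2(FPKM + 1). Red lines mark the 5 genes; Bpifa1 at 9.05 and Scgb1a1 at 5.28 lie in the sparse right tail, and Bpifb1 at 1.30 is nearest to the bulk.

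The makeup of the set, by the levels as listed, differed among the libraries as well. The 5 genes summed to 2283, 13048 and 17120 FPKM in OE tumors, 1253 and 1441 FPKM in the OE normal group and 1347 and 928 FPKM in WT lung, a sum that leaves out any Scgb1a1 not estimated. Scgb3a2 led in all 4 normal lungs, Bpifa1 led in tumors 2 and 3 and Scgb1a1 led in tumor 1. The ratio of Bpifa1 to Bpifb1 was 70.3, 12334 and 6403 in OE tumors, 9.33 and 3.18 in OE normal lung and 2.04 and 1.61 in WT lung. That ratio was thus higher in every tumor than in any normal lung. In tumor 1 it rests on Bpifb1 at 0.408 FPKM, close to the lower limit of expression. Bpifa1 itself had 28.7 FPKM there, below both OE normal lungs. The ratio of Scgb3a2 to Scgb3a1 was 1.12, 1.30 and 0.587 in OE tumors, 2.58 and 1.35 in OE normal lung and 6.77 and 8.07 in WT lung. Tumors were lowest, but tumor 2 and OE normal 2 were nearly equal, and both WT lungs were above every OE library.

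Relatives of the 5 genes were mostly absent. Of 12 other secretoglobin-family rows in the files, 6 were at 0 in all 7 libraries, and only Scgb1c1 passed the expression minimum of 1 FPKM in at least 2 libraries. Scgb1c1 had 4.004, 8.18 and 13.1 FPKM in OE tumors, 25.5 and 16.8 FPKM in the OE normal group and 22.6 and 27.4 FPKM in WT lung. Its log2 difference was -1.33 relative to OE normal lung (limma adjusted p = 0.0548) and -1.58 relative to WT lung (limma adjusted p = 0.0322). The call relative to WT lung was lost without tumor 2 or without any 1 normal lung, and Scgb1c1 was called relative to OE normal lung without tumor 1 or tumor 3. Tumor 1 was again lowest and tumor 3 highest.

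Of 15 other genes of the BPI-fold family, 3 were tested, of which 1 rose and 1 fell in tumors relative to either normal group. Over all genes, 13.1% rose and 24.9% fell relative to OE normal lung, and 15.0% and 23.2% relative to WT lung. Lbp, which binds bacterial lipopolysaccharide and presents it to CD14, had 52.4, 78.1 and 79.4 FPKM in OE tumors, 27.7 and 21.0 FPKM in the OE normal group and 25.2 and 19.8 FPKM in WT lung. Its log2 difference relative to OE normal lung was 1.47 (SE 0.24, limma adjusted p = 0.00466). Pltp, the phospholipid transfer protein of plasma lipoproteins, had 16.6, 3.57 and 4.86 FPKM in OE tumors, 242 and 189 FPKM in the OE normal group and 217 FPKM in both WT lungs. Its log2 difference relative to OE normal lung was -4.79 (SE 0.55, limma adjusted p = 0.00145). Bpifb5 had 1.73, 4.15 and 4.53 FPKM in OE tumors against 2.11 and 1.09 FPKM in the OE normal group, and did not pass (log2 difference 0.74, limma adjusted p = 0.193). Without tumor 1 the genes that rose numbered 2.

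Most, but not all, other markers of the club cell, whose classical marker is Scgb1a1, were low in tumors. Of 14 club cell genes tested, 9 fell and none rose relative to OE normal lung, with a median log2 difference of -3.29 against -0.11 over all genes. Relative to WT lung 9 fell and none rose (median -3.44 against -0.06). The shares of all genes called lower were 24.9% and 23.2% in these comparisons. Cyp2a5, a cytochrome P450, had 0.246 ± 0.248 FPKM in OE tumors (SD, n = 3) and 207 ± 29.1 FPKM in the OE normal group (n = 2), a log2 difference of -7.40. The log2 difference was -5.93 for Cyp2f2, the naphthalene-activating P450 of club cells, -5.79 for Cyp4b1 and -4.20 for Aldh1a1, a retinaldehyde dehydrogenase. Cyp2f2, Cyp4b1 and Aldh1a1 were called by limma (adjusted p 3.36e-04 to 0.00248). Cyp2a5 passed the expression minimum through normal lungs alone, so no test is given for it. Chad, Gabrp and Cldn10, also counted as fallen, reached 1 FPKM in no more than 1 tumor. Their place in the counts thus rests on normal lungs as well. Aldh1a7, Ces1d, Selenbp1, Gsta3 and Fmo2 were tested and not called in either comparison. Fmo2 had 114, 419 and 426 FPKM in OE tumors, 225 and 228 FPKM in the OE normal group and 278 and 253 FPKM in WT lung. The 15 genes of the list summed to 804, 1622 and 1927 FPKM in OE tumors, 8654 and 6819 FPKM in the OE normal group and 9204 and 10205 FPKM in WT lung.

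Of the 15 club cell genes, 7 ran in the same order across the tumors as Scgb1a1, highest in tumor 1 and lowest in tumor 2, among them Cyp2f2 with 33.7, 12.3 and 21.5 FPKM and Cyp4b1 with 10.7, 0.578 and 2.07 FPKM in OE tumors 1, 2 and 3. Another 6 were lowest in tumor 1, including Cbr2, Ces1d and Fmo2, which carry much of the sum. The order of Scgb1a1 was not particular to club cell genes. The ciliated cell list summed to 29.2, 12.2 and 18.2 FPKM in OE tumors 1, 2 and 3. Pearson's r with OE normal 1 across genes ran in that order as well, at 0.801, 0.745 and 0.764. The share of all genes in that order was not counted. In bulk samples, fewer cells of a type and less RNA per cell cannot be told apart. Leaving out tumor 1 gave 9 lower and 2 higher club cell genes relative to OE normal lung, and over the single libraries left out the number lower ran from 8 to 9.

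**Figure D4:**
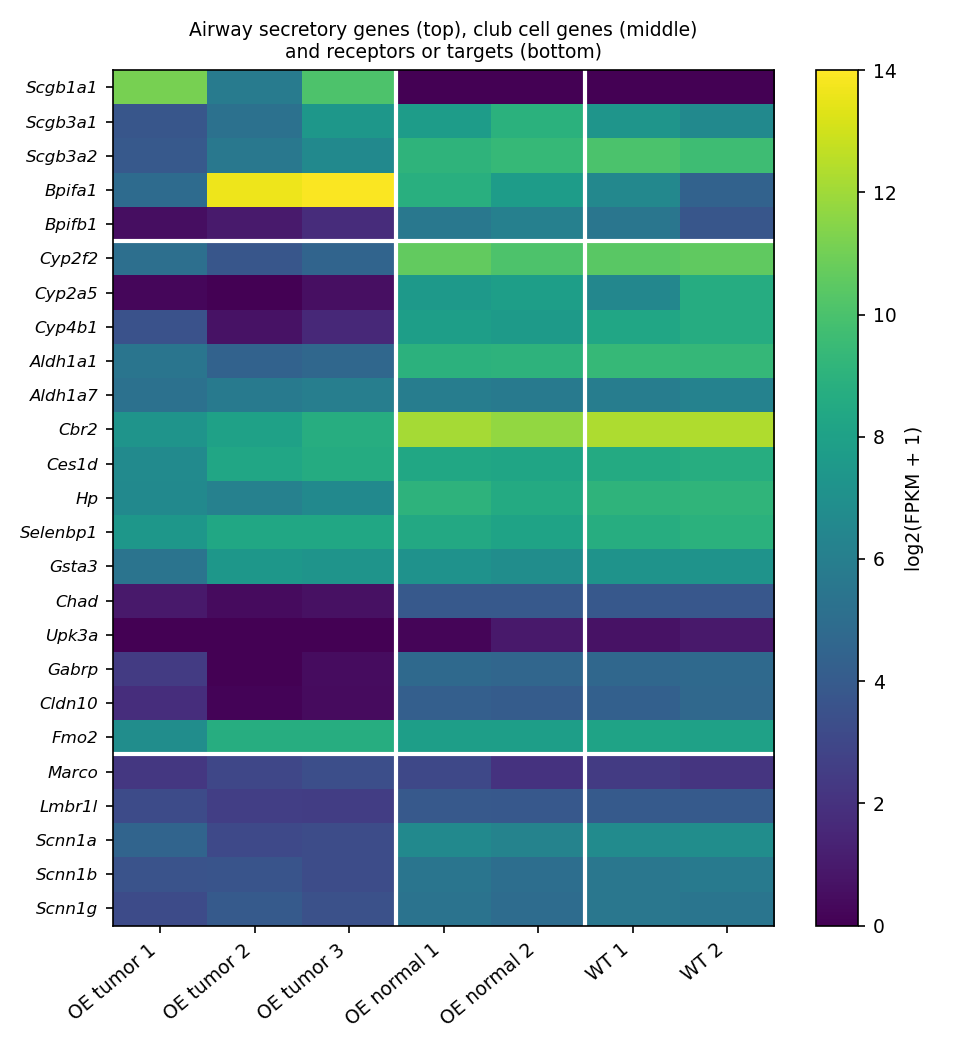
Level as log2(FPKM + 1) (color) in each library (columns, OE tumors, then OE normal, then WT) of the 5 genes, 15 club cell genes and 5 receptors or targets (rows, separated by white lines). Cyp2a5 and Cyp4b1 are darker in tumors than in normal lung, while Bpifa1 is brightest in tumors 2 and 3.

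Markers of ciliated cells fell in tumors, as Scgb3a2 and Bpifb1 did, while those of alveolar type 2 cells rose. All 14 ciliated cell genes tested fell in tumors relative to OE normal lung (median -3.83), where 24.9% of all genes fell. Among them was the ciliogenesis factor Foxj1, with 1.81, 0.0864 and 0.487 FPKM in OE tumors against 33.5 and 47.7 FPKM in OE normal lung. The list summed to 29.2, 12.2 and 18.2 FPKM in OE tumors, 517 and 644 FPKM in the OE normal group and 638 and 744 FPKM in WT lung. Of 11 alveolar type 2 genes, 7 rose and none fell relative to OE normal lung (median 1.66, or 1.68 without Sftpc, which was listed at 0 in tumors 2 and 3), including the surfactant proteins Sftpd (log2 difference 2.34, limma adjusted p = 0.0022) and Sftpb (2.33, limma adjusted p = 0.0137, lost without OE normal 2 at 0.101). Over all genes, 13.1% were called higher relative to OE normal lung. The part of cell makeup in the levels of the 5 genes was not tested.

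Basal and neuroendocrine markers were low throughout. Of 7 basal genes only Ngfr, a neurotrophin receptor, passed the expression minimum, at 0.436, 0.236 and 0.263 FPKM in OE tumors against 1.04 and 1.12 FPKM in the OE normal group, and it passed that minimum through the OE normal lungs alone, so no test is given. Of 5 neuroendocrine genes tested, 2 rose and 2 fell relative to OE normal lung, where 13.1% of all genes rose and 24.9% fell. They were Ddc and Scg5 upward (2.12 and 1.14) and Syp and Uchl1 downward (-1.41 and -1.29), all at or below 9.96 FPKM in each library.

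Mucus and airway defense genes, which act beside these proteins in airway fluid, did not move as 1 group. Of 23 tested, 3 rose and 9 fell relative to OE normal lung (median -1.45), where 13.1% of all genes rose and 24.9% fell. Relative to WT lung 3 rose and 7 fell (median -0.31), against 15.0% and 23.2% of all genes. Relative to OE normal lung these counts were 6 and 11 without tumor 1, 1 and 6 without OE normal 1 and 1 and 5 without OE normal 2; relative to WT lung they were 5 and 9 without tumor 1, 3 and 4 without tumor 2 and 2 and 4 without WT 1. Lcn2, an iron-siderophore-binding antimicrobial protein, had 769, 2880 and 4154 FPKM in OE tumors, 143 and 66.0 FPKM in the OE normal group and 60.8 and 44.6 FPKM in WT lung. Lcn2 rose by 4.42 on the log2 scale relative to OE normal lung (SE 0.74, limma adjusted p = 0.00545), with the same order of tumors as Bpifa1 but with tumor 1 still above every normal lung. The antibacterial lectin Reg3g had 0.101, 0.560 and 2.77 FPKM in OE tumors. It had 45.9 and 50.6 FPKM in the OE normal group and 23.3 and 4.54 FPKM in WT lung. The log2 difference relative to OE normal lung was -4.72 for Reg3g and -5.19 for Lypd2. Among the tumors, Reg3g and Lypd2 reached 1 FPKM in tumor 3 alone. They passed the expression minimum only with normal lungs, so no test is given for them. The sulfotransferase Sult1d1 (-3.59) passed the expression minimum through normal lungs alone, so no test is given for it.

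Among 11 tested transcription factors of airway and distal lung epithelium, 4 rose and 1 fell relative to OE normal lung (median 0.43), or 6 and 2 without tumor 1. With all libraries, 13.1% of all genes rose and 24.9% fell in that comparison. Cebpa, which promotes epithelial maturation in the lung, had 340, 348 and 355 FPKM in OE tumors against 42.1 and 26.2 FPKM in the OE normal group (log2 difference 3.35, limma adjusted p = 2.98e-04). Foxa2 rose by 1.86 and Nkx2-1, the lung lineage factor, by 1.76. Sox2, which marks the conducting airway, had 0.261, 0.0152 and 0.0513 FPKM in OE tumors against 6.88 and 6.18 FPKM in the OE normal group (-2.77). Sox2 was the 1 factor counted as fallen. It passed the expression minimum through normal lungs alone, so no test is given for it. Among the tumors Cebpa and Foxa2 were nearly equal, whereas Ehf, an ETS factor of epithelium, had 44.6, 13.5 and 13.2 FPKM and Nkx2-1 had 254.7, 193 and 175 FPKM in tumors 1, 2 and 3. Ehf was named after its values were seen.

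Notch signaling sets the balance of secretory and ciliated cells in the airway. Of 12 Notch pathway genes tested, 6 fell and none rose relative to OE normal lung (median -0.73), where 24.9% of all genes fell. That count depended on the processing. The number lower was 5 with median-of-ratios scaling, 9 as TPM, 4 with quantile normalization and 3 with the replicate block. Relative to WT lung 8 fell and none rose, against 23.2% of all genes lower. Dll1, a ligand, had 1.64, 1.67 and 1.86 FPKM in OE tumors against 12.0 and 26.5 FPKM in the OE normal group (log2 difference -2.80), and the target Hey1 fell by 2.43, the receptor Notch3 by 1.47 and the ligand Jag2 by 0.97. Jag2 was no longer called without OE normal 2 (limma adjusted p = 0.106). Without tumor 1 the number lower was 10 in either comparison, with 2 and 1 higher, and without WT 2 it was 5 relative to WT lung.

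Transcripts of proteins that these secreted factors are reported to bind or regulate were measured as well. Of these, 4 of 5 fell relative to OE normal lung (median -1.59) and 4 of 5 relative to WT lung (median -1.93). The shares of all genes called lower were 24.9% and 23.2%. The epithelial sodium channel subunit Scnn1a had 21.8, 7.38 and 8.48 FPKM in OE tumors, 99.2 and 75.0 FPKM in the OE normal group and 107 and 114 FPKM in WT lung. The log2 differences relative to OE normal lung were -2.84 for Scnn1a, -1.76 for Scnn1b and -1.59 for Scnn1g, all called by limma. Lmbr1l, whose human counterpart has been described as a receptor for uteroglobin, fell by 1.08 (limma adjusted p = 0.0115) and was not called without either OE normal lung (largest limma adjusted p 0.0758). Marco had 3.77, 6.83 and 9.21 FPKM in OE tumors, 7.17 and 3.13 FPKM in the OE normal group and 4.43 and 3.41 FPKM in WT lung, and did not pass (0.32, limma adjusted p = 0.565).

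In none of these lists was a gene called between OE normal lung and WT lung with all 7 libraries. Without tumor 1, limma called 1 mucus and airway defense gene higher and 1 Notch pathway gene lower.

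Across the 7 libraries, the genes most like each member were found by Pearson's r of log2(FPKM + 1) among 8462 genes that reached 10 FPKM somewhere. For Bpifa1 they were Pisd-ps1 (r = 0.992), Ube2v1 (0.990) and Rnf114 (0.989), all highest in tumors 2 and 3 but over a much smaller range, as Ube2v1 had 49.2, 65.4 and 65.5 FPKM in OE tumors and 49.2 to 54.9 FPKM in normal lung. For Scgb3a2 they were Ifitm2 (0.993), Rnf14 (0.992) and Ly6c1 (0.991). For Bpifb1 they were Lax1 (0.987), Tap2 (0.987) and Cd40 (0.986), and for Scgb3a1 the class I histocompatibility genes H2-K1 (0.962) and H2-D1 (0.935) and the aldose reductase Akr1b3 (0.936). Among the members, r was 0.919 between Scgb3a2 and Bpifb1, 0.841 between Scgb3a1 and Bpifb1 and 0.813 between Scgb3a1 and Scgb3a2. It was -0.317 between Bpifa1 and its neighbor Bpifb1, -0.297 between Bpifa1 and Scgb3a2 and 0.113 between Bpifa1 and Scgb3a1. These values are descriptions over 7 libraries that fall into tumor and normal clusters.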

How the data were processed

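RNA sequencing of 7 mouse lung libraries was analyzed from the deposited FPKM values. The authors aligned reads with TopHat2 or TopHat and computed FPKM with Cufflinks 2.0.0 with mm9 as the build; all this is per the submitters' processing notes. No source used here gives the annotation, strand setting or read totals. Each file held 22474 rows, of which 27 carried a date in place of a symbol and were left out. The members and lists were chosen with earlier results of these data known. Depth is unknown beyond the relative depths read from low values, so no counting interval is given.

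Values were taken as log2(FPKM + 1), and 14057 genes reaching 1 FPKM in 2 or more libraries entered the models of limma 3.58.1 (R 4.3.3) (trend, two-sided) over 7 libraries in 3 groups, and called where the Benjamini-Hochberg adjusted p was below 0.05. A fold on this scale understates the change of low genes. Genes that would not have passed the expression minimum without normal lungs are kept in the counts of the lists. Such genes can be counted as fallen more readily than as risen. The procedure was tested on simulated data. Named genes were the 5 members, Ezh2, up to 4 called genes with non-overlapping groups per list by size of difference relative to OE normal lung (2 by mean level where none was called), and the 3 genes most like each member. There were 11 lists. Muc16 and the current symbols Chil4 and Chia1 matched no row. Alternatives changed the scaling (median-of-ratios, TPM or quantile), the filter (none, or 5 FPKM) or the pseudocount (0.1), blocked by replicate number, or dropped 1 library at a time. Promoter windows and positions are RefSeq's, of build GRCm38.p6. The files carry no coordinates. Python 3.11.15 with matplotlib 3.10.9 drew the figures.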

Additional observations from a re-analysis of the deposited data

How the results depend on the processing

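Of 168 member differences under the alternatives (4 genes, 3 comparisons, 14 alternatives), 160 kept their direction and side of the threshold, 6 newly passed, 2 no longer passed and none reversed. Members called in tumors relative to OE normal lung numbered 2, and 1 to 3 over the single libraries left out (1 without either OE normal lung). All genes called numbered 5350 relative to OE normal lung, 3130 with the replicate block and 2877 (without OE normal 2) to 9604 (without tumor 1). Relative to WT lung they numbered 5371, 2999 with the block and 2411 (without WT 2) to 9429 (without tumor 1). Between OE normal and WT lung they numbered 0, 1 at a pseudocount of 0.1, 2 with no filter, 1 with the block and 0 to 302 over the single libraries left out (302 without tumor 1).

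The labels state no pairing by replicate number. Deviations from group means of same-numbered libraries correlated at -0.029 to 0.034. In a group of 2 the deviations mirror each other, so these values cannot decide whether samples were paired. Tumor 3 shares its number with no other library, so the block fits tumors 1 and 2, and Scgb3a1 was then called at -3.84 relative to OE normal lung (limma adjusted p = 0.0159) and -2.47 relative to WT lung (0.0443). The share of calls that were higher relative to OE normal lung was 34.5%, and 41.7% with median-of-ratios scaling, 18.2% as TPM and 56.0% with quantile normalization, with medians over all genes of -0.11, 0.01, -0.33 and 0.13. Relative to WT lung it was 39.4%, 43.3%, 30.8% and 54.7%. No call of a member moved under these scalings. Read depth was not given, so the counting error of Bpifb1 in tumors, at 0.408 to 2.46 FPKM, is unknown. The cause of these shifts was not tested.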

Other observations

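Of the mucus and airway defense list, the demilune cell and parotid proteins Dcpp1, Dcpp2 and Dcpp3 were highest in tumor 1. They had 31.4, 14.8 and 6.12 FPKM in tumor 1, and no value above 0.356 FPKM in any other library. They were below the expression minimum, were chosen after their values were seen, and have near-identical copies among which reads can be split. Bpifb2, another BPI-fold gene below the minimum and likewise chosen after its values were seen, had 0, 1.37 and 0.951 FPKM in the OE tumors and was listed at 0 in all 4 normal lungs.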
